A study of Rattus norvegicus with 140 samples.

Results

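The genes described here are 36 genes that carry ions, nutrients, organic anions, urea or filtered protein across the wall of the renal tubule, or govern that transport. They were chosen by name, with earlier results of these data known, and grouped by the nephron segment in which each is best known. Of the 36, 33 had a transcript ID of their own among the 29214 IDs of the array, with 1 ID for each gene. The 2 IDs annotated to Slc5a2, the glucose cotransporter of the early proximal tubule, are shared with another gene, as are the 2 IDs of Avpr2, the vasopressin receptor of the collecting duct, and no ID of the annotation used here names Slc17a1, an apical anion transporter. No level is given for these 3. The 33 genes measured were 19 of the proximal tubule, 3 of the thick ascending limb, 4 of the distal convoluted and connecting tubule, 3 of collecting duct principal cells, 3 of intercalated cells and 1 of the inner medullary collecting duct. RNA from the kidneys was hybridised to Affymetrix Rat Gene ST arrays, 1 for each rat, and came from 36 male Fischer 344 rats aged about 2 to 3 months, all of which carried an implanted transmitter for core temperature. By the study's methods, heated rats were moved into an incubator at room temperature on the day before heating, a change of housing that the comparison with controls includes. They were kept there at 37°C until the core temperature reached 41.8°C (Tc,Max) and were killed then, or after 24 h or 48 h of recovery in a cage at room temperature. Control rats of the same strain and sex were not heated, stayed in or went back to their own cages and were killed at the matching times, so that each of the 6 groups held 6 rats. The sources differ on the handling of controls, since the sample labels place them for a short time in the unheated incubator and the study's methods keep them out of it. The labels do not tell injured from uninjured heated rats, and each time was kept as 1 heated group.

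The proximal tubule takes back most of what the glomerulus filters, including sodium bicarbonate, phosphate, glucose, amino acids, sulfate and small proteins, and secretes organic anions and cations. The thick ascending limb reabsorbs salt without water and lets magnesium and calcium pass between its cells, the distal convoluted and connecting tubules set the final uptake of sodium chloride, magnesium and calcium, and the collecting duct adjusts sodium, water, acid and urea under hormones such as aldosterone and vasopressin. Early and late parts of the proximal tubule carry different sets of transporters, and the inner medulla, deep in the organ, differs from the cortex in nearly all of these genes.

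At Tc,Max 6.24% of all IDs tested in kidney rose and 5.93% fell at an adjusted p under 0.05 in limma. Among the 31 tested members 6 proximal tubule genes rose and 2 genes of later segments fell. The 250 bases before the RefSeq start in build GRCr8 are printed for 4 of these 8: Cubn and Cldn16, whose heated and control arrays did not overlap, Scnn1g, the other gene that fell, and Slc34a3, which had the largest difference. They lie at chr17:81501695-81501944 on the minus strand, chr11:87814397-87814646 on the minus strand, chr1:185735975-185736224 on the plus strand and chr3:28447998-28448247 on the minus strand. Capitals mark matches on either strand to GAANNTTC, a pair of heat shock element units, or to TTAATNATT, a core of the site read by the hepatocyte nuclear factor HNF1.
Cubn: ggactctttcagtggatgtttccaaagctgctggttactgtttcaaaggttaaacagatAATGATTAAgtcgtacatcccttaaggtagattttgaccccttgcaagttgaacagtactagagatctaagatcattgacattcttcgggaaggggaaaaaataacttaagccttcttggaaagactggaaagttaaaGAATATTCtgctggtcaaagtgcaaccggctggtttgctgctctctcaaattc
Cldn16: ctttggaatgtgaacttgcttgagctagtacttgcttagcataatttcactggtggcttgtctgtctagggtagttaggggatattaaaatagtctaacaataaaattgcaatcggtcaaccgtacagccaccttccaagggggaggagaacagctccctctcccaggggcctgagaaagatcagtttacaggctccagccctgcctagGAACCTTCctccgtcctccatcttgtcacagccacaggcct
Scnn1g: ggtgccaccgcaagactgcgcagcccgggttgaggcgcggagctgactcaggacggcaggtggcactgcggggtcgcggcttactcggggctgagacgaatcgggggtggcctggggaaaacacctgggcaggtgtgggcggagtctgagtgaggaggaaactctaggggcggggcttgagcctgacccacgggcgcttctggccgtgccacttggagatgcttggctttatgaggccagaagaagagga
Slc34a3: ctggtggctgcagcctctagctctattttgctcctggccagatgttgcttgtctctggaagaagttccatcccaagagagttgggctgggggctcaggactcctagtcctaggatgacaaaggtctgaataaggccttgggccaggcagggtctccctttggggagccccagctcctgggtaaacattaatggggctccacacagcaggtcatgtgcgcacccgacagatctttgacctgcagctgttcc
The Cubn window held 1 match to each motif and the Cldn16 window 1 match to GAANNTTC, and the windows of the other 6 genes that changed held neither. Of the 32 members with a start region in the table, 3 held GAANNTTC (Cubn, Cldn16 and Trpv5) and 3 held TTAATNATT (Slc7a9, Cubn and Slc12a1). Among all 33469 start regions of that length 7.23% held the first motif and 1.37% the second. A match describes the letters of the window and is not a binding site.

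Levels are given as log2(intensity + 16) of the deposited values, and the median intensity of the arrays lay between 38.0 and 57.1. Kidney markers were high in every array, with a summed intensity of 7 markers from 12200 to 21400, whereas 5 heart markers summed to between 78.8 and 143 and 5 lung markers to between 59.8 and 356. Liver genes were present to very different extents. Albumin (Alb) ranged from 4.08 to 12.5 and lay above 9 in 24 of the 36 arrays, and 4 liver markers summed to between 38.5 and 6260 in heated rats at Tc,Max and between 75.9 and 5070 in their controls. The adipose gene Adipoq lay above 8.5 in 5 of the 36 arrays. In such bulk tissue fewer cells of a type and less RNA per cell cannot be told apart for any gene below.

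Some arrays stood apart from their group. In control replicate 6 of Tc,Max the corticosteroid-induced genes Sgk1 (11.83) and Fkbp5 (8.90) lay within the range of heated rats (11.41 to 11.85 and 8.38 to 9.52). In control replicate 1 Sgk1 was 11.38, but Fkbp5 was 6.69, within the 6.01 to 7.10 of the 4 controls other than replicates 1 and 6. Control replicates 1 and 6 were also the controls with the highest heat shock genes at Tc,Max. Hsph1 was 9.25 in replicate 1 and 8.45 in replicate 6, against 7.85 to 7.99 in the other 4 controls and 11.45 to 12.00 in heated rats. Dnajb1 was 6.97 and 6.90 in these controls, against 6.45 to 6.76 in the other 4 and 9.50 to 10.51 in heated rats. Heated replicate 1 of 48 h was the lowest of its group for 24 of the 33 members and the lowest of all 36 arrays for 17. The injury receptor Havcr1 lay above 8 in 7 arrays, all from heated rats of 24 h or 48 h.

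Across organs, 24 of the 33 members had their highest organ median in kidney, 5 in lung, 3 in liver and 1 in heart, on values that the authors normalised for each organ apart. These organ medians do not bear on the segment of a gene, which was taken from textbook knowledge. Slc2a2 stood at 11.59 in liver against 8.01 in kidney. Slc14a2, which encodes the urea transporters of the inner medulla, had a kidney median of 5.87, close to 5.60 in liver, 5.85 in lung and 5.88 in heart. It was well above this level only in some arrays, lying above 9 in 6 of 36.

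Heated and control rats were compared with limma over the 14607 IDs with the larger SD, which included 31 members. At Tc,Max 6 of the 31 rose (19.4%) at an adjusted p under 0.05, where 6.24% of all tested IDs rose, and 2 fell (6.45%), where 5.93% of all tested IDs fell. A call together with a change of at least 2-fold was found for 4 members and for 1.83% of all tested IDs. The genes were chosen with earlier results of these data known, so these shares do not test for an excess among the members. The median difference, heated minus control, over the 33 members was 0.21, beside −0.07 over all tested IDs. By segment, 16 of 19 proximal tubule members lay higher in heated rats (median 0.47), as did 4 of 4 of the distal convoluted and connecting tubule (median 0.34, none past the test), and 3 of 3 of the thick ascending limb lay lower (median −0.33). The medians over the other genes listed with an ID for the proximal tubule (38), the distal convoluted and connecting tubule (14) and the thick ascending limb (11) were 0.04, −0.01 and −0.27. The members' medians thus do not stand for all genes of the first 2 of these segments. In the thick ascending limb the median of the members lay close to that of the other genes. Slc3a1 and Atp6v1b1 did not pass the SD filter and have values but no test.

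**Figure D1:**
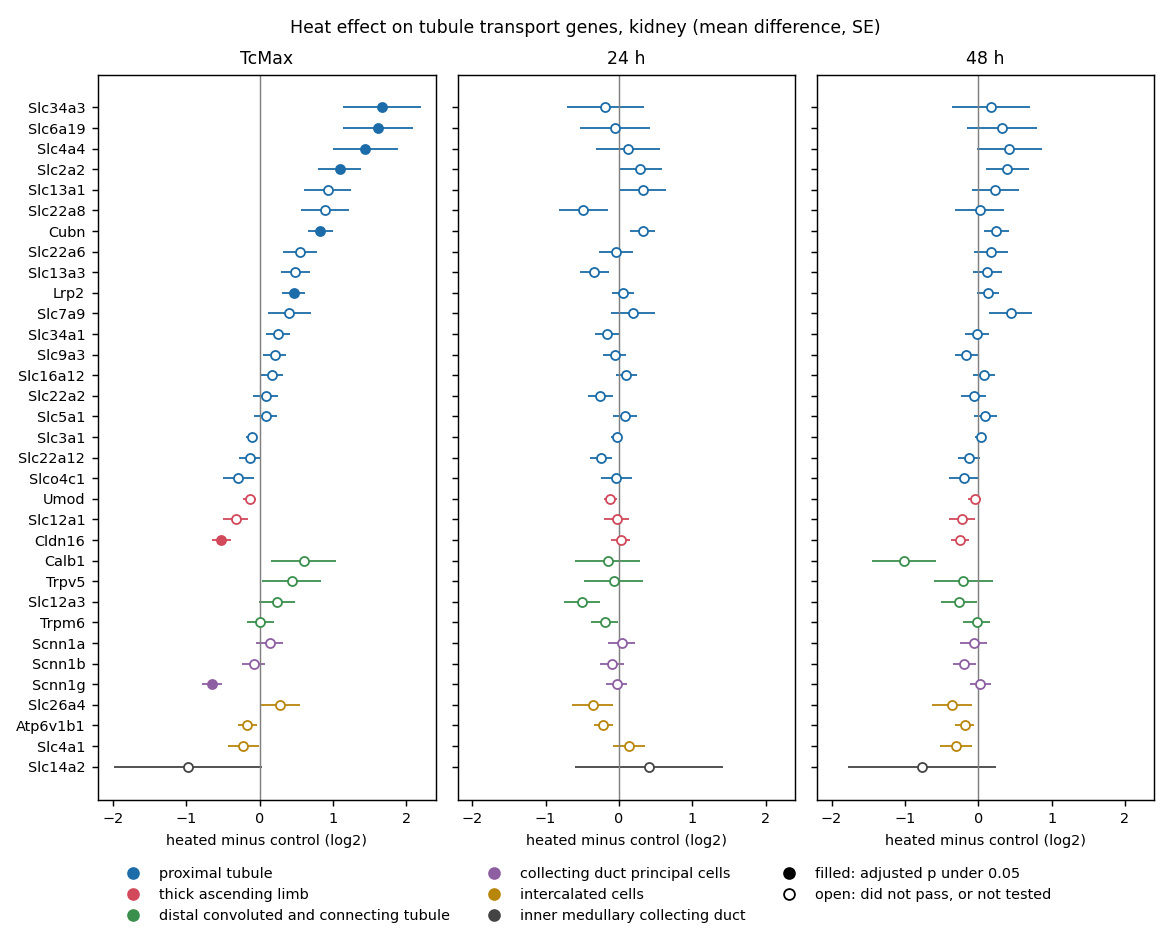
Heated minus control on the log2 scale for the 33 members at Tc,Max, 24 h and 48 h, ordered and coloured by segment, with bars of 1 SE of the limma fit (6 heated and 6 control rats at each time). Filled points passed an adjusted p under 0.05: 6 proximal tubule genes, Cldn16 and Scnn1g at Tc,Max, and none at 24 h or 48 h.

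The largest differences at Tc,Max belonged to transporters known from the early proximal tubule. Slc34a3, the apical sodium-phosphate cotransporter NaPi-IIc, ranged from 6.75 (median 8.14) to 9.74 in controls and from 9.24 (median 9.85) to 10.21 in heated rats. Of the heated arrays 4 lay above all controls, and the groups overlapped only through control replicate 6. Slc34a3 rose by 1.67 ± 0.53 (SE, n = 6 and 6, 3.18-fold, adjusted p = 0.0304 from limma). The other phosphate cotransporter, Slc34a1 (NaPi-IIa), ranged from 11.03 (median 11.82) to 12.04 in controls and from 11.79 (median 11.98) to 12.10 in heated rats, and its difference of 0.26 ± 0.16 did not pass (adjusted p = 0.410 from limma).

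Slc6a19, the apical carrier of neutral amino acids, ranged from 6.37 (median 7.56) to 8.95 in controls and from 8.69 (median 9.17) to 9.62 in heated rats. With 5 of 6 heated arrays above all controls, it rose by 1.61 ± 0.48 (3.05-fold, adjusted p = 0.0188 from limma). The subunits of the cystine transporter lay closer to their controls. The light subunit Slc7a9 differed by 0.41 ± 0.29 (adjusted p = 0.493 from limma), and the heavy subunit Slc3a1, the steadiest member with a within-group SD of 0.12, was 12.26 to 12.51 in controls and 12.15 to 12.35 in heated rats. The creatine transporter Slc16a12 differed by 0.17 ± 0.15 (adjusted p = 0.589 from limma).

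Slc4a4, the basolateral sodium-bicarbonate cotransporter NBCe1, ranged from 8.38 (median 9.51) to 11.05 in controls and from 10.38 (median 10.99) to 11.73 in heated rats. Only 2 heated arrays lay above control replicate 6, the highest control, while all 6 lay above the other 5 controls. Slc4a4 rose by 1.44 ± 0.44 (2.72-fold, adjusted p = 0.0231 from limma). Slc9a3, the apical sodium-proton exchanger NHE3 that works in series with it, differed by 0.21 ± 0.16 (adjusted p = 0.513 from limma).

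Slc2a2, the basolateral glucose exit transporter GLUT2, ranged from 7.02 (median 7.77) to 8.60 in controls and from 8.29 (median 8.92) to 9.33 in heated rats, with 5 heated arrays above all controls. It rose by 1.09 ± 0.29 (2.13-fold, adjusted p = 0.00903 from limma). Because liver expresses Slc2a2 too, Alb is given beside it. At Tc,Max Alb was higher in the heated group, with a median of 11.14 against 9.46 in controls. It lay above 9 in 5 heated and 3 control arrays. Among single arrays, heated replicate 6 had the highest Slc2a2 (9.33) with Alb at 4.72, and control replicate 1 the lowest (7.02) with Alb at 11.95. Slc5a1 (SGLT1), the glucose cotransporter of the late proximal tubule, differed by 0.08 ± 0.16 (adjusted p = 0.836 from limma).

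Both endocytic receptors for filtered protein rose. Cubn, which encodes cubilin, ranged from 10.27 (median 10.95) to 11.51 in controls and from 11.54 (median 11.79) to 11.94 in heated rats, so that all 6 heated arrays lay above all controls, the lowest by a small margin over control replicate 6. It rose by 0.83 ± 0.17 (1.77-fold, adjusted p = 0.000528 from limma), the smallest adjusted p among the members. Lrp2, which encodes its partner megalin, ranged from 10.34 (median 11.03) to 11.35 in controls and from 11.22 (median 11.42) to 11.70 in heated rats, 4 of which lay above all controls, and rose by 0.47 ± 0.15 (adjusted p = 0.0385 from limma). Heated and control arrays did not overlap at Tc,Max for 2 members, Cubn and Cldn16, and for 7.99% of all tested IDs.

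**Figure D2:**
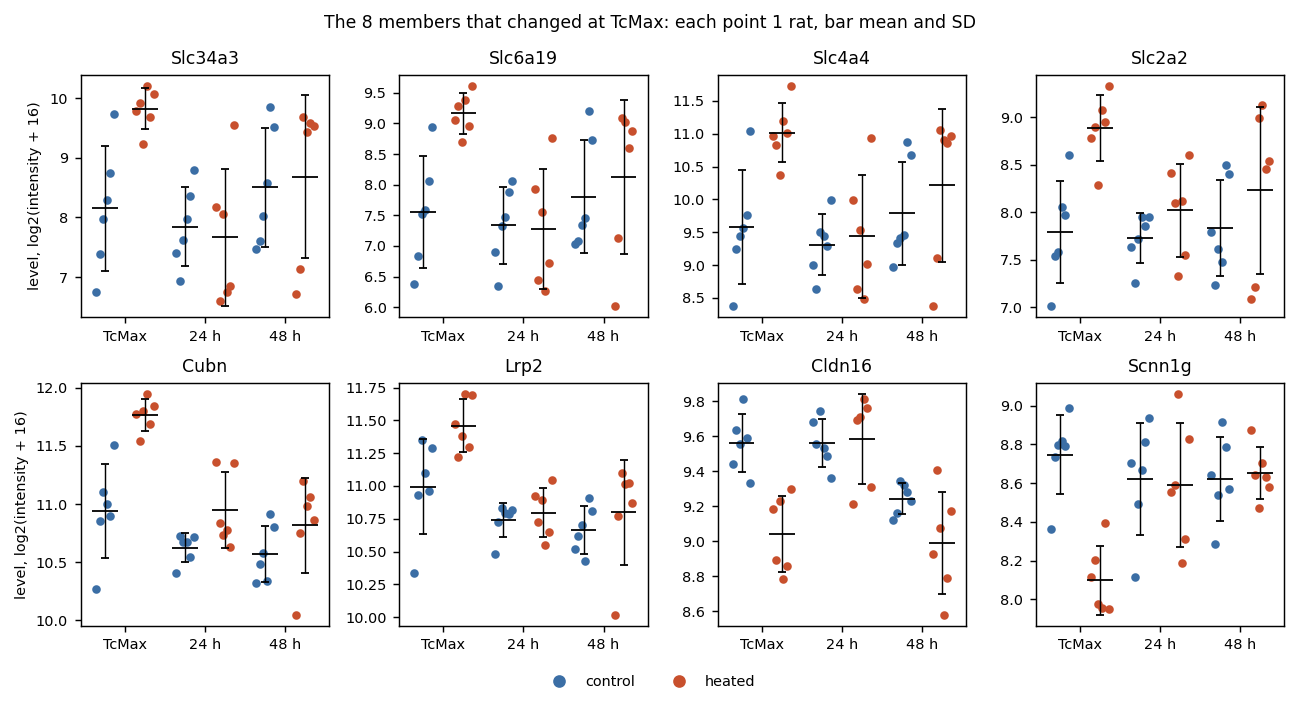
Level, as log2(intensity + 16), of the 8 members that changed at Tc,Max in each of the 36 rats, by time, with heated rats in orange and controls in blue. Horizontal bars are means and vertical bars 1 SD of 6 rats, and at Tc,Max the 6 heated points of Cubn lie above and those of Cldn16 below all 6 controls.

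Carriers of organic ions, sulfate and carboxylates did not pass the test at Tc,Max. Slc13a1, the apical sodium-sulfate cotransporter, ranged from 8.98 (median 9.93) to 11.05 in controls and from 10.52 (median 10.86) to 11.33 in heated rats, 3 of which lay above all controls, a difference of 0.93 ± 0.32 (adjusted p = 0.0539 from limma). Slc22a8 (OAT3), which takes organic anions up from blood, ranged from 8.5 (median 9.67) to 10.33 and from 10.05 (median 10.54) to 11.03, with 4 heated arrays above all controls (0.89 ± 0.33, adjusted p = 0.0801 from limma). The other organic anion carrier of that membrane, Slc22a6 (OAT1), differed by 0.55 ± 0.23 and the dicarboxylate cotransporter Slc13a3 by 0.49 ± 0.20 (adjusted p = 0.126 and 0.111 from limma). For the cation transporter Slc22a2 the difference was 0.09 ± 0.17 (95% interval −0.26 to 0.43), for the urate exchanger Slc22a12 −0.13 ± 0.15 (−0.44 to 0.18) and for the anion carrier Slco4c1 −0.29 ± 0.21 (−0.71 to 0.13).

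Of 34 other transport genes of the proximal tubule that were tested, 6 rose and 1 fell at Tc,Max. Slc16a1, a monocarboxylate transporter, was 6.38 to 8.13 in controls and 8.69 to 9.55 in heated rats and rose by 2.24 ± 0.34 (adjusted p = 5.86e-06 from limma). The phosphate carrier Slc20a2 was 8.57 to 8.74 in controls and 7.76 to 8.22 in heated rats and fell by 0.68 ± 0.09 (adjusted p = 7.77e-07 from limma). The groups did not overlap for either gene. Slc3a2, the heavy chain of basolateral amino acid exchangers, rose by 0.73 ± 0.16 and Amn, which cubilin needs to reach the membrane, by 0.73 ± 0.18 (adjusted p = 0.00115 and 0.00374 from limma). Of 12 tested proximal tubule markers outside transport, 2 rose, Ass1, an enzyme of arginine synthesis (0.73 ± 0.18), and the dipeptidase Dpep1 (0.73 ± 0.25).

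The members with the largest rises also varied widely among unheated rats. Over the 18 controls Slc34a3 spanned 3.10 log2 units, Slc6a19 2.85, Slc4a4 2.66 and Slc2a2 1.58, against 0.83 for Slc5a1 and 0.81 for Slc3a1. The lactate carrier Slc5a12, an early proximal gene that is not a member and was picked after its values were seen, lay above 9 in 14 arrays and between 4.95 and 7.51 in the other 22. The 14 were all 6 heated arrays of Tc,Max, control replicate 6 of that time, heated replicate 6 of 24 h, control replicates 5 and 6 of 48 h and heated replicates 3 to 6 of 48 h. Slc34a3 was highest in the same arrays: at 48 h it was 9.86 and 9.51 in control replicates 5 and 6, against 7.48 to 8.57 in the other controls, and at 24 h it was 9.54 in heated replicate 6, against 6.60 to 8.18 in the other heated rats.

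**Figure D3:**
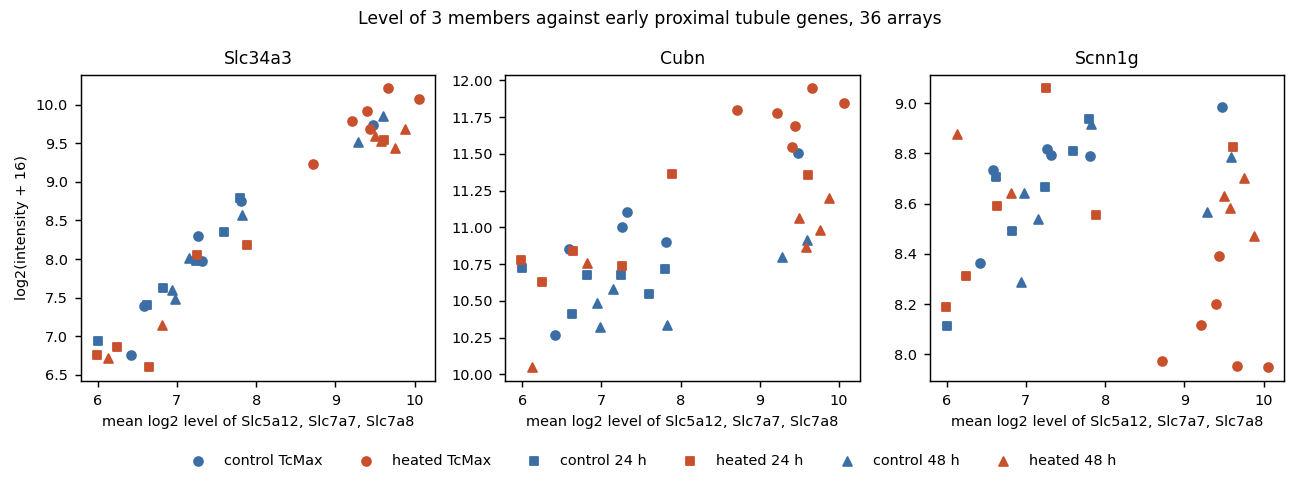
Level of Slc34a3, Cubn and Scnn1g, as log2(intensity + 16), on the vertical axis against the mean log2 level of Slc5a12, Slc7a7 and Slc7a8 in the same array, for the 36 kidney arrays, with colours for heated and control rats and shapes for times. Slc34a3 is high where that mean is high in heated and control rats alike, whereas the 6 heated arrays of Tc,Max (orange circles) stand above all other arrays for Cubn.

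When the mean level of Slc5a12, Slc7a7 and the amino acid exchanger Slc7a8 was added to the fit, a choice made after the array values were seen, the difference at Tc,Max became 0.05 ± 0.14 for Slc34a3, 0.15 ± 0.13 for Slc6a19, 0.11 ± 0.14 for Slc4a4 and 0.30 ± 0.18 for Slc2a2 (adjusted p = 0.943, 0.660, 0.803 and 0.386 from limma). Lrp2 (0.14 ± 0.12) and Cldn16 (−0.37 ± 0.12) no longer passed either (adjusted p = 0.646 and 0.0714 from limma). Cubn (0.44 ± 0.12, adjusted p = 0.0280 from limma) and Scnn1g (−0.79 ± 0.14, adjusted p = 0.00028 from limma) still passed. Slc5a12 and Slc7a7 themselves rose at Tc,Max, by 3.23 ± 0.91 and 1.54 ± 0.52 (adjusted p = 0.0130 and 0.0432 from limma), so a heat effect on these genes and a sample richer in early proximal tubule cannot be told apart. With the mean of Alb, Ttr, Cps1 and Fgb in the fit in its place, all 8 members passed, and Slc2a2 differed by 1.18 ± 0.27.

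The 3 thick ascending limb members lay lower in heated rats, and 1 of them passed. Cldn16, a claudin of the pathway for magnesium and calcium between cells, ranged from 9.33 (median 9.57) to 9.82 in controls and from 8.79 (median 9.04) to 9.30 in heated rats, all 6 below all controls. It fell by 0.52 ± 0.13 (adjusted p = 0.00326 from limma). Slc12a1, the sodium-potassium-chloride cotransporter NKCC2, ranged from 11.23 (median 11.82) to 12.17 and from 10.42 (median 11.58) to 12.08, and 1 heated array, replicate 4, lay below all controls (−0.33 ± 0.17, adjusted p = 0.280 from limma). Umod, which encodes the urinary protein uromodulin, differed by −0.13 ± 0.09 (adjusted p = 0.448 from limma).

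Of the 9 other tested transport genes of the thick ascending limb, 4 fell and 0 rose at Tc,Max. Bsnd, the chloride channel subunit barttin, fell by 1.01 ± 0.20, from 8.14 to 9.45 in controls to 7.28 to 8.22 in heated rats (adjusted p = 0.000354 from limma). Cldn19, the partner of Cldn16 in the magnesium pathway, fell by 0.81 ± 0.18, the calcium-sensing receptor Casr by 0.42 ± 0.12 and the prostaglandin receptor Ptger3 by 0.59 ± 0.19 (adjusted p = 0.00175, 0.0154 and 0.0347 from limma).

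In collecting duct principal cells 1 of 3 subunits of the epithelial sodium channel changed at Tc,Max. Scnn1g, the gamma subunit, ranged from 8.36 (median 8.79) to 8.99 in controls and from 7.95 (median 8.04) to 8.39 in heated rats, and 5 of 6 heated arrays lay below all controls. It fell by 0.65 ± 0.14 (adjusted p = 0.000856 from limma). The alpha subunit Scnn1a ranged from 7.0 (median 7.64) to 8.14 and from 7.46 (median 7.68) to 8.15 (0.14 ± 0.18, adjusted p = 0.759 from limma), and the beta subunit Scnn1b differed by −0.08 ± 0.16 (adjusted p = 0.840 from limma). Of 6 other tested genes listed for these cells, 2 rose: Sgk1, a kinase that keeps the sodium channel at the membrane (1.5 ± 0.32, adjusted p = 0.00084 from limma), and Tsc22d3, a target of corticosteroid receptors (1.96 ± 0.21, adjusted p = 7.61e-09 from limma). The study lists Tsc22d3 as raised at Tc,Max in heart, liver and lung as well as kidney, so its rise is not particular to principal cells. The other 4 of these 6 genes lay lower in heated rats and did not pass, and the median over the 9 listed genes with an ID was −0.30. Fxyd4, a small partner of the sodium pump, ranged over 8.40 to 11.24 (median 9.76) in controls and 6.94 to 9.70 (median 8.61) in heated rats (−1.19 ± 0.44, adjusted p = 0.0762 from limma), and the transcription factor Elf5 over 4.93 to 8.02 (median 6.31) and 4.30 to 6.68 (median 5.28) (−1.04 ± 0.46, adjusted p = 0.159 from limma). The water channel Aqp2 ranged over 9.63 to 11.68 (median 10.39) in controls and 9.46 to 10.68 (median 9.77) in heated rats. These genes thus lay lower together with Scnn1g, which still passed with their mean in the fit, as given with Slc14a2. Their mean was itself lower in heated rats (median 7.84, against 8.76 in controls) and was chosen after the values were seen. A heat effect on these genes and a sample with less collecting duct therefore cannot be told apart by that fit.

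The heat effect on Scnn1g at Tc,Max differed from that at 48 h by −0.68 ± 0.20 (adjusted p = 0.0303 from limma), in a comparison where 5.76% of all tested IDs differed. It no longer passed in 7 of the 24 cases in which 1 array was left out, those of control replicate 6 and heated replicates 3, 4 and 6 of Tc,Max and of control replicates 2 and 3 and heated replicate 1 of 48 h (−0.66 to −0.61 in these). Against 24 h the difference of effects was −0.62 ± 0.20 (adjusted p = 0.0513 from limma), where 6.38% of all tested IDs differed. No other tested member passed against 48 h, none passed against 24 h, and none passed between 24 h and 48 h, where 0 of all tested IDs did. With the tag prefix of the rat as a block (the first digits of its tag number), 4 members differed between Tc,Max and 24 h, where 6.65% of all tested IDs did. They were Slc34a3 by 2.24 ± 0.58, Slc6a19 by 2.00 ± 0.55, Slc22a8 by 1.54 ± 0.40 and Slc13a3 by 0.93 ± 0.25 (adjusted p = 0.0127, 0.0200, 0.0129 and 0.0169 from limma). In limma without a block 9 members had an unadjusted p under 0.05 for Tc,Max against 24 h, 3 for Tc,Max against 48 h and 0 for 24 h against 48 h. The share of all tested IDs at that unadjusted p is not given, so these counts cannot be read as an excess. For Slc34a3 the effects at Tc,Max and 24 h differed by 1.85 ± 0.75 (adjusted p = 0.163 from limma) and for Cldn16 by −0.54 ± 0.18 (adjusted p = 0.0599 from limma), so without the block these effects were not shown to differ between times, and the call for Slc34a3 depends on the block. For Cldn16 the adjusted p with the block was 0.0683 in limma.

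Genes of calcium, magnesium and sodium chloride uptake in the distal convoluted and connecting tubule passed at no time. Calb1, the calcium carrier calbindin-D28k, ranged from 7.91 (median 9.89) to 10.99 in controls and from 9.98 (median 10.26) to 10.80 in heated rats at Tc,Max (0.60 ± 0.44, adjusted p = 0.497 from limma), with no heated array outside the control range. At 48 h it ranged from 9.40 (median 9.85) to 10.06 in controls and from 7.11 (median 8.85) to 10.08 in heated rats, 5 of which lay below all controls. This difference of −1.02 ± 0.44 had an unadjusted p of 0.0267 and an adjusted p of 0.910 in limma. The calcium channel Trpv5 was 5.80 to 8.13 in controls and 7.33 to 7.95 in heated rats at Tc,Max (0.44 ± 0.40).

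Slc12a3, the thiazide-sensitive sodium-chloride cotransporter NCC, ranged from 10.17 (median 10.51) to 11.05 in controls at 24 h and from 9.50 (median 9.98) to 10.70 in heated rats, 4 of which lay below all controls. The difference of −0.50 ± 0.25 had an unadjusted p of 0.0483 and an adjusted p of 0.688 in limma. At Tc,Max the difference was 0.24 ± 0.25, and at 48 h, with 9.85 to 10.57 in controls and 8.65 to 10.09 in heated rats, it was −0.26 ± 0.25. The magnesium channel Trpm6 was 7.38 to 8.42 in controls and 7.37 to 8.20 in heated rats at 24 h (−0.19 ± 0.19). Of 9 other tested genes of these segments 0 passed in limma at any of the 3 times, with an unadjusted p under 0.05 for 2 at Tc,Max, 2 at 24 h and 1 at 48 h.

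Intercalated cell members lay near their controls. Pendrin (Slc26a4), the apical chloride-bicarbonate exchanger, ranged from 7.36 (median 8.54) to 9.02 in controls and from 8.35 (median 8.69) to 9.16 in heated rats at Tc,Max (0.28 ± 0.28, adjusted p = 0.664 from limma). Its difference was −0.36 ± 0.28 at 24 h (7.96 to 8.99 in controls, 7.31 to 8.75 in heated rats) and −0.36 ± 0.28 at 48 h (8.28 to 8.98 and 6.75 to 8.69). Slc4a1 (AE1), also the anion exchanger of red blood cells, ranged from 8.56 (median 9.03) to 9.44 and from 8.47 (median 8.68) to 9.50 at Tc,Max (−0.22 ± 0.22) and differed by 0.14 ± 0.22 at 24 h (8.53 to 9.48 and 8.58 to 9.68) and by −0.31 ± 0.22 at 48 h (8.77 to 9.82 and 8.63 to 9.45). The 5 red cell markers summed to between 463 and 2410 in controls and between 1280 and 2620 in heated rats at Tc,Max, and their part in the level of Slc4a1 was not tested. The proton pump subunit Atp6v1b1 was 8.91 to 9.17 in controls and 8.60 to 9.07 in heated rats at Tc,Max. Of 10 other tested genes of these cells, 1 rose, carbonic anhydrase Car2 (0.37 ± 0.10), and 1 fell, the ammonium carrier Rhbg (−0.49 ± 0.15).

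Slc14a2 of the inner medullary collecting duct was the most uneven member, with a within-group SD of 1.88. At Tc,Max it ranged from 4.49 (median 6.95) to 11.58 in controls and from 4.49 (median 5.99) to 9.19 in heated rats, at 24 h from 4.26 to 6.20 and from 5.17 to 6.78, and at 48 h from 5.29 to 10.42 and from 4.84 to 10.75. The difference at Tc,Max of −0.98 ± 1.01 (adjusted p = 0.677 from limma) was smaller than its SE. Levels above 9 occurred in 3 control and 3 heated arrays, and the highest Slc14a2, in control replicate 1 of Tc,Max, came with the highest level of the water channel Aqp2 (11.68) and with the lowest Slc34a3, Slc4a4 and Slc2a2 of its group.

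With the mean of Aqp2, Fxyd4 and Elf5, genes of collecting duct principal cells, added to the fit, also after the values were seen, 4 members passed at Tc,Max, where 11.2% of all tested IDs did. They were Cubn (0.61 ± 0.15), Cldn16 (−0.59 ± 0.13), Scnn1g (−0.59 ± 0.14) and Slc22a12 (−0.38 ± 0.12), with adjusted p = 0.00762, 0.00157, 0.00575 and 0.0453 from limma. Slc22a12 passed only with this mean, which itself was lower in heated rats, and not in the fit without it (−0.13 ± 0.15, adjusted p = 0.717 from limma). The other 5 genes that rose no longer passed, with Slc34a3 at 1.30 ± 0.56 and Slc2a2 at 0.81 ± 0.30 (adjusted p = 0.155 and 0.0803 from limma).

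**Figure D4:**
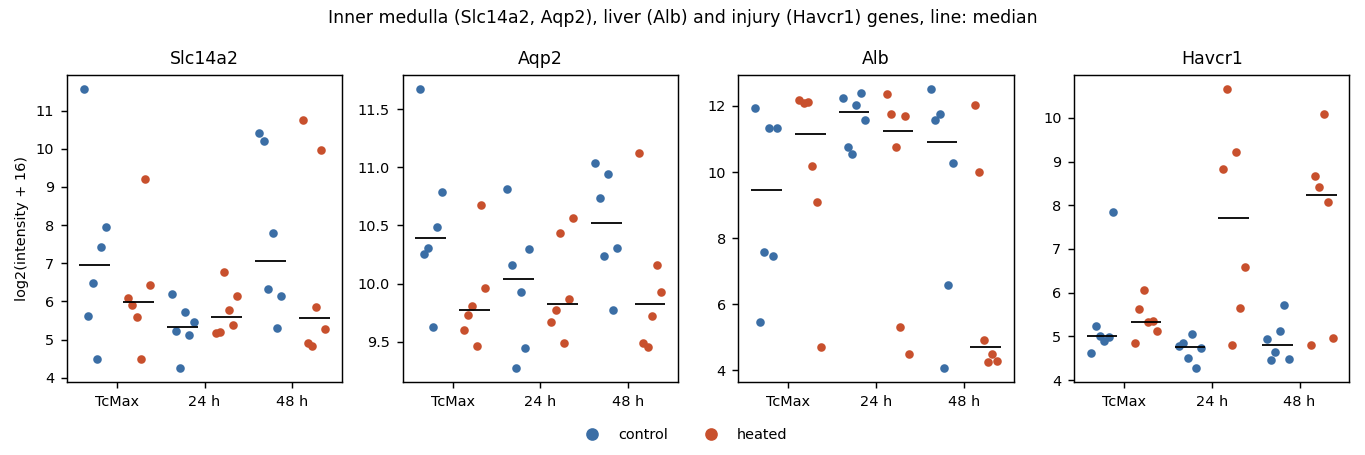
Level, as log2(intensity + 16), of Slc14a2, Aqp2, Alb and Havcr1 in each kidney array by time, with heated rats in orange, controls in blue and lines at the median of 6 rats. Slc14a2 lies above 9 in 6 arrays and Alb in 24, from heated and control rats, while Havcr1 lies above 8 only in heated rats of 24 h and 48 h.

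Single arrays decided some of the calls at Tc,Max. Without control replicate 6, Slc22a8 and Slc13a1 rose besides the 6. Without control replicate 1, or without control replicate 2, only Slc2a2 and Cubn rose. Slc34a3 also lost its call without control replicate 3 or heated replicates 2, 4 or 6, and over all 6 such cases its difference was 1.39 to 1.65. Lrp2 lost its call in 7 of the 12 cases in which 1 array was left out, those of control replicates 1, 2 and 5 and heated replicates 1, 3, 4 and 6 (0.33 to 0.48). Slc4a4 lost it without control replicate 1 or 2 or heated replicate 6 (1.20 to 1.38), and Slc6a19 without control replicate 1 or 2 (1.37 to 1.47). Cubn, Slc2a2, Cldn16 and Scnn1g passed in all 12. Without control replicates 1 and 6 together, 5 rose, all but Lrp2, and the same 2 fell.

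The number on the rat's tag begins with 09, 11 or 12, a prefix whose meaning the labels do not give, and each prefix held 2 heated and 2 control rats at Tc,Max. Within the 3 prefixes Slc34a3 differed by 2.78, 1.59 and 0.63, Slc6a19 by 2.57, 1.48 and 0.79, Slc4a4 by 2.08, 1.28 and 0.97, Slc2a2 by 1.56, 0.86 and 0.85 and Lrp2 by 0.71, 0.32 and 0.37. Cubn differed by 1.1, 0.82 and 0.56, Cldn16 by −0.50, −0.68 and −0.38 and Scnn1g by −0.39, −0.84 and −0.72. All 8 kept their direction within each prefix. They were called on these same rats, so the shared direction is not separate support. Calb1, which was not called, changed direction, with 2.09, 0.59 and −0.87. With the prefix as a block in the fit, Slc22a8 and Slc13a1 rose at Tc,Max besides the 6, and the same 2 fell.

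At 24 h and at 48 h 0 of the 31 tested members passed in limma, where 0.00685% and 0.0411% of all tested IDs rose and 0 fell. At each of these times 1 member had an unadjusted p under 0.05, Slc12a3 and Calb1, beside 1001 and 736 of all tested IDs, and 0 members passed with a change of at least 2-fold, against 0.00685% and 0.0137% of all tested IDs. The median difference over the 33 members was −0.04 at 24 h and −0.02 at 48 h. No member had heated and control arrays that did not overlap, against 0.356% and 0.171% of all tested IDs. Slc34a3 differed by −0.18 at 24 h (95% interval −1.26 to 0.89) and by 0.18 at 48 h (−0.90 to 1.25), so that a 2-fold difference lay within the interval at both times.

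Cubn ranged from 10.41 (median 10.68) to 10.73 in controls at 24 h and from 10.63 (median 10.81) to 11.36 in heated rats, 5 of which lay above all controls (0.33 ± 0.17, adjusted p = 0.688 from limma). At 48 h it was 10.32 to 10.91 in controls and 10.05 to 11.20 in heated rats (0.25 ± 0.17). Slc13a3 was 10.27 to 10.86 in controls and 9.69 to 10.57 in heated rats at 24 h (−0.33 ± 0.20). The groups thus overlapped for both genes. Slc7a9 at 48 h was 8.27 to 9.45 in controls and 7.50 to 10.03 in heated rats (0.44 ± 0.29), with 3 heated arrays above and 1 below all controls.

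In the thick ascending limb Cldn16 at 48 h ranged from 9.12 (median 9.26) to 9.34 in controls and from 8.58 (median 9.0) to 9.40 in heated rats, 4 of which lay below all controls (−0.25 ± 0.13, adjusted p = 0.989 from limma). At 24 h it was 9.36 to 9.75 and 9.21 to 9.81 (0.02 ± 0.13). Umod at 24 h was 12.14 to 12.39 in controls and 11.96 to 12.37 in heated rats (−0.12 ± 0.09), and Slc12a1 at 48 h 11.29 to 11.62 and 10.98 to 11.49 (−0.22 ± 0.17). In principal cells Scnn1g was 8.11 to 8.94 in controls and 8.19 to 9.06 in heated rats at 24 h, and 8.29 to 8.92 and 8.47 to 8.88 at 48 h, so the groups overlapped widely. Scnn1b was 7.78 to 8.60 and 7.85 to 8.76 at 24 h (−0.09 ± 0.16) and 8.09 to 8.79 and 7.90 to 8.55 at 48 h (−0.19 ± 0.16). Scnn1a at 48 h was 7.0 to 7.80 and 6.60 to 7.62 (−0.06 ± 0.18).

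**Figure D5:**
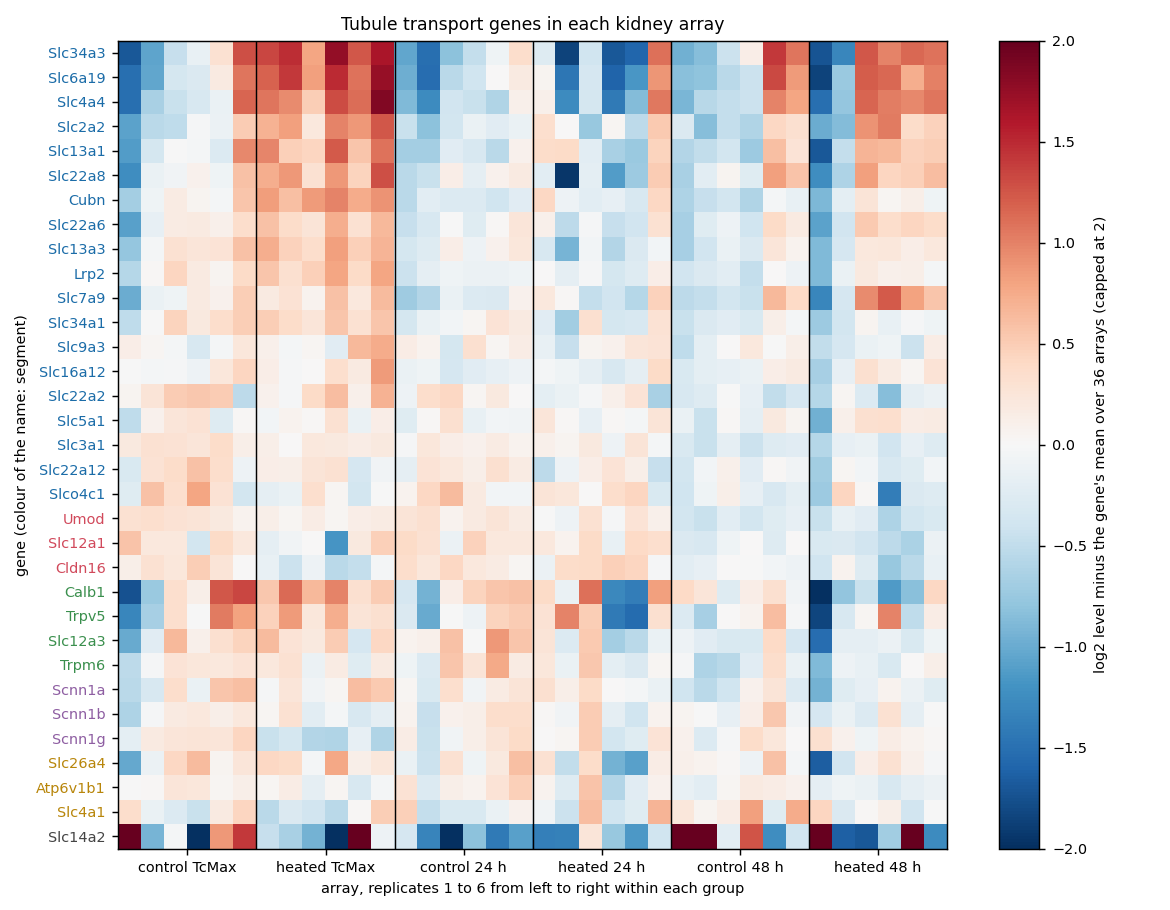
Level of each of the 33 members in each of the 36 kidney arrays, as log2 level minus the mean of that gene over the 36 arrays (colour, capped at 2), with genes ordered by segment and arrays by group and replicate. Slc34a3, Slc6a19, Slc4a4, Slc2a2, Slc13a1 and Slc22a8 are high together in the heated arrays of Tc,Max and in single arrays of other groups, and heated replicate 1 of 48 h is the lowest of its group for 24 of the 33 members.

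Havcr1, a receptor that injured proximal tubule cells display, was 4.28 to 7.86 in the 18 controls. At 24 h it was 10.67, 9.21 and 8.84 in heated replicates 2, 4 and 1, where Slc22a8 was 7.80, 8.64 and 9.54, against 9.20 to 9.93 in controls. Heated replicate 5, with Havcr1 at 5.64, also had Slc22a8 below all controls, at 9.03. At 48 h heated replicate 4 had the highest Havcr1 of that time (10.08) and the lowest Slco4c1 of all 36 arrays (7.11), with Slc34a3 at 9.44. Its Slc22a8 was 10.17, within the 9.10 to 10.57 of controls. In heated replicates 2, 4 and 1 of 24 h Slco4c1 was 8.72, 8.84 and 8.75, within the 8.43 to 9.12 of controls. Havcr1 lay above 8 in 4 heated arrays of 48 h, of which only replicate 4 is described. The genes and arrays named here were picked after their values were seen. A relation of the members to Havcr1 was not tested.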

How the data were processed

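Kidney RNA of 36 rats was hybridised to Affymetrix Rat Gene 1.1 ST arrays. The deposited values are linear intensities, which the authors computed organ by organ with iterPLIER in Affymetrix Expression Console 1.1. The offset of 16 in their methods is not in these intensities, so log2(intensity + 16) was taken here. The files hold no detection calls, the number of arrays limits the precision, and 0 columns of other series were present.

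IDs were named where the platform annotation gives 1 gene. The 36 genes and all lists were chosen with earlier results of these data known. The 50% of IDs with the larger SD (14607) were tested with limma 3.58.1 in R 4.3.3, as 6 group means in 1 fit with moderated variances, heated minus control at each time, and differences of these effects between times, with Benjamini-Hochberg adjustment over these IDs. Levels by group are given for members that passed and for the 2 members of each segment with the smallest adjusted p at each time (ties by unadjusted p), and at most 4 passing genes of each other list are named. Sgk1, Fkbp5, Hsph1, Dnajb1, Fxyd4, Elf5, Havcr1, Alb, Adipoq, Aqp2, Slc5a12, Slc7a7 and Slc7a8 were named after their values were seen.

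Replicates were separate rats. Alternatives changed the filter, offset, normalisation, variance model, samples, blocks and covariates. In simulated data of 14607 IDs for Tc,Max, 88% of IDs changed 2-fold and 94% of those changed 3-fold were called, with 10 unchanged IDs called. The changed IDs were drawn from those with a mean level above the median, with independent normal noise. These shares do not give the chance of a call for members with a wide spread. Slc34a3, Slc6a19 and Slc4a4 had within-group SDs of 0.99, 0.89 and 0.82. Start regions are from RefSeq (GRCr8) and figures from matplotlib 3.10.9.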

Additional observations from a re-analysis of the deposited data

Results flagged for a closer look

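In 11 of 198 groups of 6 arrays 1 array lay farther from the nearest of the others than Dixon's test allows, where chance gives about 5% of groups. Of these, 5 were the low values of heated replicate 1 of 48 h, with nearest values in brackets: Slc5a1 at 7.84 (8.89), Lrp2 at 10.02 (10.77), Slc12a3 at 8.65 (9.88), Scnn1a at 6.60 (7.29) and Slc26a4 at 6.75 (8.01). The same array had Slc14a2 at 10.75 and Adipoq at 9.01. Control replicate 1 of Tc,Max was low for Slc22a6 at 9.35 (10.26) and Scnn1b at 7.63 (8.21). Control replicate 5 of 48 h was high for Slc12a3 at 10.57 (10.08) and Slc26a4 at 8.98 (8.48). At 24 h control replicate 1 was low for Lrp2 at 10.48 (10.72) and control replicate 2 for Scnn1b at 7.78 (8.32). The heat effect on Scnn1g differed between Tc,Max and 48 h, by −0.68 in limma.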

How the results depend on the processing

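At Tc,Max 6 members rose. With a replicate block, or with the liver covariate, 10 did, the 6 and Slc22a6, Slc22a8, Slc13a1 and Slc13a3. With an offset of 1 in place of 16, 3 of the 6 rose (Slc2a2, Slc6a19 and Cubn), and with the early proximal or the medullary collecting duct covariate 1, Cubn. Of the 2 that fell, 0 fell with the offset of 1 and 1 with the early proximal covariate. Of all tested IDs 12.2% were called in either direction at Tc,Max, 13.5% with the replicate block and 13% with the liver covariate. With the offset of 1 it was 5.54%, with the early proximal covariate 9.84% and with the medullary covariate 11.2%. Members that passed and were past 2-fold numbered 4, 2 with the offset of 1 and 0 with the early proximal or the medullary covariate. With the medullary covariate Slc34a3, Slc6a19 and Slc4a4 stayed past 2-fold (1.30, 1.20 and 1.13) without passing. With the offset of 1 the SD filter kept 17 of the 33 members, and Lrp2, Cldn16 and Scnn1g were not tested. For Tc,Max against 24 h 0 members differed, where 6.38% of all tested IDs did (this share is in brackets below). With a filter on dim IDs 2 members differed (8.52%), with quantile normalisation 1 (6.95%) and without moderation of variances 2 (6.49%). With only the groups compared in the fit 1 did (6.56%). With the replicate block 4 did (7.1%): Slc34a3, Slc22a8, Slc13a3 and Slc6a19. The same 4 did with the tag prefix as a block (6.65%) and with the liver covariate (6.89%). With the early proximal covariate 1 did (5.48%), with the medullary covariate 1 (5.99%) and without control replicates 1 and 6 1 (5.46%). Counts of 1 or 2 members do not exceed these shares. Against 48 h the 1 that differed became 0 with the offset of 1. With 1 array left out in turn, 2 to 8 members rose at Tc,Max, 2 fell, 0 to 6 passed and were past 2-fold, 0 to 3 differed against 24 h and 0 to 1 against 48 h. Covariates and the removal of control replicates 1 and 6 were chosen after the data were seen. Same-numbered rats did not deviate together in every pair. The correlations of deviations ran from −0.56 to 0.297 at Tc,Max, from −0.244 to 0.364 at 24 h and from −0.148 to 0.609 at 48 h, with 4, 3 and 4 of 6 over 0.1, and 1, 2 and 3 of 6 heated rats correlated best with their own number. At Tc,Max the numbers follow the tag prefix in both groups. The replicate block is therefore not read as a paired test. No member that had passed changed its sign. The use of another ID of a gene could not be run, since each member has 1.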

Other observations

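Among cell type markers outside the tubule at Tc,Max, leukocyte genes moved in both directions: of 8 tested, Ptprc, the common leukocyte antigen, rose by 0.69 ± 0.12, while the macrophage receptor Csf1r fell by 0.54 ± 0.13 and the endotoxin coreceptor Cd14 by 0.78 ± 0.19 (adjusted p = 8.44e-05, 0.00396 and 0.00314 from limma). The podocyte gene Synpo fell by 0.55 ± 0.16, 1 of 7 tested, and the red cell gene Rhag by 0.46 ± 0.15, 1 of 4 tested (adjusted p = 0.0187 and 0.0339 from limma). Of 6 tested endothelial markers 0 passed in limma, although 5 had an unadjusted p under 0.05, and of 8 stromal, 6 adipose and 6 injury markers 0 passed, with 1, 0 and 1 at an unadjusted p under 0.05.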
